A study of Homo sapiens with 6 samples.

Results

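The genes described here are 10 growth factor receptor tyrosine kinases, taken by name from the deposited comparison of HEYA8 ovarian cancer cells: EGFR, ERBB2, ERBB3, MET, FGFR1, IGF1R, PDGFRA, PDGFRB, DDR1 and DDR2. They are 10 of the 20061 rows of that table, and the authors tested 8 of them. HEYA8 is an established human cell line, which the submitters list under low grade serous ovarian carcinoma. Every culture held a lentivirus that expresses a short hairpin RNA, and grew in serum-containing medium with puromycin and no further treatment. In the control group (shLuciferase, 3 samples) the hairpin targeted luciferase, which human cells lack. In the other (shETS1, 3 samples) it targeted ETS1, a transcription factor. The labels name no second hairpin against ETS1 and do not state how the 3 samples of each were obtained, so the deposited p-values may reflect technical spread alone.

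Receptor tyrosine kinases span the plasma membrane. A growth factor outside the cell brings receptor chains together, their kinase domains phosphorylate tyrosines in the tails, and adaptor proteins bound there pass the signal to the RAS-ERK and PI3K-AKT pathways. EGFR, ERBB2 and ERBB3 belong to the ERBB family, MET binds hepatocyte growth factor, and the DDR receptors bind collagen rather than a soluble factor. EGFR, ERBB2 and MET are well known from epithelial cancers, whereas PDGFRA and PDGFRB are typical of fibroblasts and pericytes.

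Levels are given in FPKM (fragment counts corrected for the length of the transcript and the size of the library), so that genes can be compared per length. For each gene the table gives a single FPKM value per group. The spread between samples is therefore unknown, no error can be attached to a level, and whether the samples of the groups overlap cannot be seen. Sequencing depth is unknown as well. The targeted gene ETS1 fell from 41.4 to 17.9 FPKM, 2.32-fold (q = 0.00964, the authors' deposited table). As for the cell type, the keratin genes KRT18, KRT8 and KRT7 stood at 2044, 1913 and 1187 FPKM in the control. The ovarian lineage factor PAX8 was at 79.7 FPKM and MSLN at 17.9 FPKM in that group. Of the same markers, KRT19, WT1 and EPCAM were low in the control, at 3.55, 3.58 and 1.71 FPKM. CDH1 and MUC16, the genes of E-cadherin and CA-125, were at 0.01 FPKM or less. Of the mesenchymal genes, FN1 (fibronectin) was at 415 FPKM and CDH2 (N-cadherin) at 18.1 FPKM in the control. The endothelial cadherin gene CDH5 fell from 17.6 to 5.00 FPKM, 3.52-fold (q = 0.00964, the authors' deposited table), while the endothelial genes KDR, VWF and EMCN stayed under 0.24 FPKM. Leukocyte markers were near absent, with CD14 highest at 0.688 FPKM, and so were most fibroblast markers, with DCN and COL3A1 listed at 0 in both groups.

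No receptor passed the test. Of the 8 tested genes, 0 reached a q-value of 0.05 (the p-value adjusted by the authors over all 11952 tested rows), where 0.812% of all tested rows did. The count was also 0 at an unadjusted p under 0.05, a level that 6.94% of all tested rows reached. With 8 genes, shares as small as these give few or no calls, so the 0 is a count near the background and does not set the receptors apart. The median log2 ratio (shETS1 over shLuciferase) of the 8 was 0.05, beside 0.02 for all tested rows. Their signs were evenly divided, with 4 genes higher and 4 lower after ETS1 knockdown, so this median sits between groups of opposite sign. Limited to the 7 members that averaged 1 FPKM or more, it was -0.17.

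The differences lay between 1.12-fold (ERBB2) and 1.38-fold (DDR1). The smallest change called at comparable levels was larger. Among tested rows with a mean of 5 to 25 FPKM, which covers EGFR, ERBB2, MET, FGFR1 and DDR2, no call was made under 1.85-fold. From 1 to 5 FPKM, the range of IGF1R and DDR1, the smallest called change was 1.96-fold, and from 0.3 to 1 FPKM, the range of ERBB3, it was 2.49-fold. No difference as small as those of the receptors was called at these levels, and the q-values do not show that the levels were equal. In polyadenylated RNA from whole cultures, less RNA per cell and fewer cells that express a gene cannot be told apart.

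**Figure D1:**
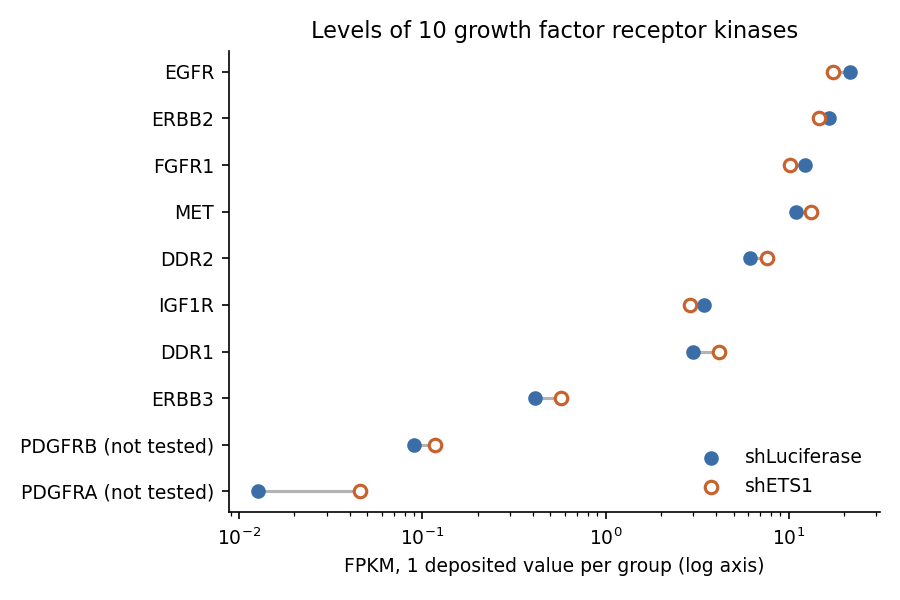
FPKM (horizontal log axis) of the 10 receptor genes in shLuciferase (filled blue) and shETS1 (open orange), 1 deposited value per gene and group, with no error available. EGFR is highest in both groups at 21.6 and 17.4 FPKM, and the untested PDGFRB and PDGFRA lie below 0.12 FPKM.

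**Figure D2:**
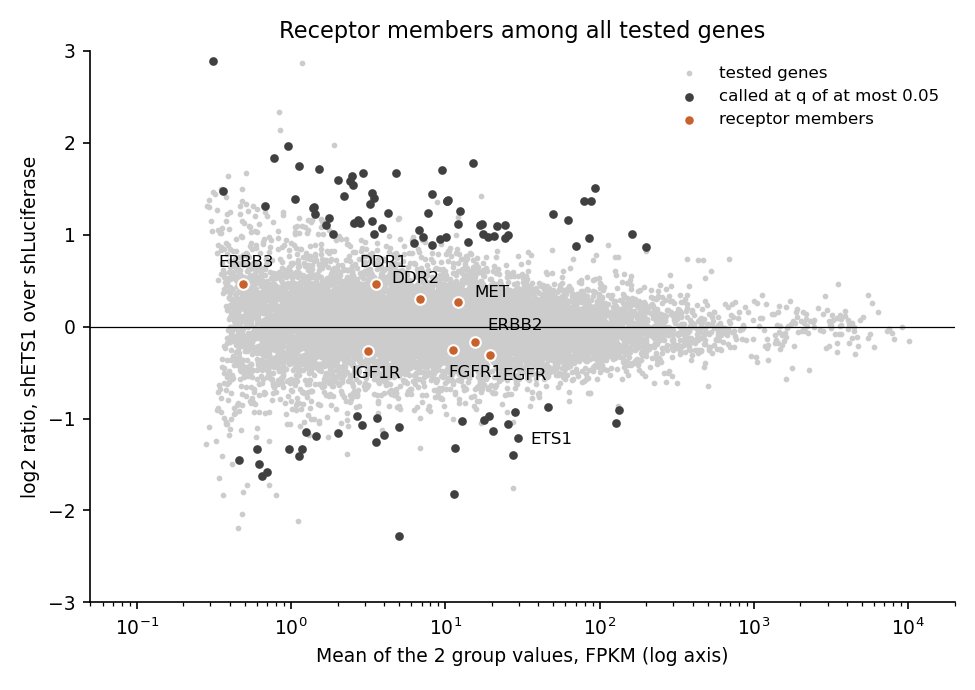
Log2 ratio of shETS1 over shLuciferase (vertical axis) against the mean of the group FPKM values (horizontal log axis) for the tested genes. Grey points are genes that were not called, dark points are genes called at a q-value of 0.05, and orange points are the 8 tested receptors, which lie between -0.31 and 0.47, inside the grey cloud. A few genes outside the axes or without a finite ratio are not drawn.

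The ERBB family was represented mainly by EGFR and ERBB2. EGFR, the receptor of EGF, TGF-alpha, HB-EGF and other ligands, was at 21.6 (control) and 17.4 FPKM (knockdown). It was the most abundant of the 10 genes in each group, and the control had the higher value. The difference was 1.24-fold, a log2 ratio of -0.31 (unadjusted p = 0.541, q = 1.00, the authors' deposited table). ERBB2, which binds no ligand of its own and acts as the partner chain of the other ERBB receptors, was at 16.5 and 14.7 FPKM. This was the smallest difference among the tested members, 1.12-fold lower in shETS1, and the authors' deposited table lists q = 1.00. ERBB3, which binds neuregulins but has a weak kinase and signals mainly through ERBB2, stood at only 0.412 and 0.568 FPKM. In the control, ERBB2 was 40.0 times as abundant as ERBB3. The 1.38-fold higher value of ERBB3 in shETS1 (q = 1.00, the authors' deposited table) rests on a low level: with 1 FPKM added to both values, its log2 ratio went from 0.46 to 0.15. ERBB4, the remaining family member, was not tested, at 0.00137 FPKM or less. The deposited loci (hg19) are chromosome 7, 55086725 to 55275031 for EGFR, chromosome 17, 37844393 to 37884915 for ERBB2 and chromosome 12, 56473809 to 56497291 for ERBB3.

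Because the hairpin targets a DNA-binding factor, the start regions of the receptor genes were searched for its recognition letters. ETS factors bind a GGAA core, and CCGGAAGT is a common longer form that contains it. Windows of 250 bases before to 50 bases after a start (RefSeq, GRCh38.p14) were listed for 8 of the 10 members, 19 windows in all. No window was listed for ERBB3 or FGFR1, so these were not searched. Both strands were read. All 19 windows held GGAA, as did 95.5% of the 35116 windows of all genes. CCGGAAGT was found in 1 of the 19, that of ERBB2, against 4.14% of all windows, and there it occurred 2 times. The windows per gene run from 1 (ERBB2, MET, IGF1R and PDGFRB) to 8 (DDR1), so the genes were not searched over equal lengths. The ERBB2 window, at chr17:39687844-39688143 on the plus strand, is shown because it is the single member window with the longer letters, and 1 of the 2 windows of the most abundant member, EGFR, the upstream one at chr7:55018767-55019066 on the plus strand, stands beside it as a window without them. The other EGFR window held no CCGGAAGT either. Capitals mark each match, the first of them on the reverse strand.
ERBB2: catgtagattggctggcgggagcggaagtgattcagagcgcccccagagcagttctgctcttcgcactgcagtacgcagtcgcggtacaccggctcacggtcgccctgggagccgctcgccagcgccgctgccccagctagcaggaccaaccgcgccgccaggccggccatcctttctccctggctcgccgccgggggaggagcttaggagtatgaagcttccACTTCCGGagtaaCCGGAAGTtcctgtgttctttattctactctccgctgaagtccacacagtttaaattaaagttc
EGFR: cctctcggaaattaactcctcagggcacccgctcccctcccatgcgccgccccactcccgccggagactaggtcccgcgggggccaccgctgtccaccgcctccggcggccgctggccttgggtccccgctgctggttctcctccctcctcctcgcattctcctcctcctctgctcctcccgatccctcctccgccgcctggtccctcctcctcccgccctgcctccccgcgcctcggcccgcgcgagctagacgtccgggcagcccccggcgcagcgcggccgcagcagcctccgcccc

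In the ERBB2 window the matches lie at 39688067 to 39688074 and 39688080 to 39688087. Both fall between the ERBB2 start at 39688094 and the start of PGAP3, a neighbour transcribed the other way, at 39688057, so the same letters lie before each gene. PGAP3 was at 2.76 and 2.99 FPKM (q = 1.00, the authors' deposited table). Neither gene beside these letters was called, and a link between the letters and the level of either gene was not tested. Only 1 ERBB2 window was listed, so any other start of that gene was not searched. The match describes the sequence only, since no binding was measured.

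MET, the receptor of hepatocyte growth factor, stood at 11.0 (control) and 13.2 FPKM (knockdown). The knockdown cells had the higher value, by 1.21-fold, and the authors' deposited table lists q = 1.00. FGFR1, a receptor for fibroblast growth factors that is widespread in mesenchymal cells, was at 12.2 and 10.2 FPKM. Its direction was opposite to that of MET, 1.195-fold lower in shETS1 (q = 1.00, the authors' deposited table). IGF1R, the insulin-like growth factor receptor, was less abundant, at 3.45 (control) and 2.88 FPKM (knockdown). Its difference was 1.199-fold, toward lower values in shETS1 (q = 1.00, the authors' deposited table). The control order of FGFR1 above MET was the reverse of that in shETS1, but neither gene's change was called and no test between the genes was made. The loci are chromosome 7, 116312459 to 116438440 for MET, chromosome 8, 38268656 to 38326352 for FGFR1 and chromosome 15, 99192761 to 99507759 for IGF1R (hg19).

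The platelet-derived growth factor receptors were close to undetected and were not tested by the authors. PDGFRA was at 0.0127 (control) and 0.0454 FPKM (knockdown), and PDGFRB at 0.0904 and 0.116 FPKM. The values of PDGFRA differ by a large factor on paper, but with 0.1 FPKM added to both its log2 ratio dropped from 1.84 to 0.37, so no fold is read from it. The deposited locus of PDGFRA (chromosome 4, 54243820 to 55164412, hg19) spans 920593 bases and is shared with CHIC2, FIP1L1, GSX2 and LNX1. FIP1L1 alone was at 23.3 FPKM in the control, far above PDGFRA. The locus of PDGFRB is chromosome 5, 149493402 to 149535422. Of 6 markers of fibroblasts and pericytes, the cells in which these receptors are typical, DCN and COL3A1 were listed at 0 in both groups, LUM, COL1A2 and RGS5 stayed under 0.22 FPKM, and COL1A1 was higher, at 1.29 and 3.75 FPKM, and rose 2.91-fold (q = 0.00964, the authors' deposited table).

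The collagen receptors had the largest (DDR1) and the fourth largest (DDR2) log2 ratios of the tested members by absolute size. DDR1, which is typical of epithelial cells, was at 2.99 (control) and 4.14 FPKM (knockdown). The knockdown value was 1.38-fold higher (unadjusted p = 0.0697, the smallest of the 8, q = 0.821, the authors' deposited table). Among the 10676 tested genes that averaged 1 FPKM or more, the absolute log2 ratio was larger than that of DDR1 in 10.7%. DDR2, which binds fibrillar collagen and is typical of mesenchymal cells, was higher than DDR1, at 6.16 and 7.56 FPKM. Its difference had the same direction, 1.23-fold (q = 1.00, the authors' deposited table). The deposited locus of DDR1 lies on an alternative haplotype contig of chromosome 6 (positions 2198779 to 2216014 of that contig), an additional copy of the region in that build, so its level is uncertain. That of DDR2 is chromosome 1, 162602228 to 162750247.

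Set among 52 receptor tyrosine kinase genes, the tested members ranked from 5 to 22 by their control level, below 4 of the others. The list of the other 42 also holds FGFRL1, which lacks a kinase domain. In the control, 19 of the 52 reached 1 FPKM, and 31 stayed under 0.5 FPKM in both groups. AXL, a receptor for the vitamin K-dependent protein GAS6, was first at 232 (control) and 256 FPKM (knockdown). TIE1, better known from endothelium, was at 164 and 122 FPKM, and EPHA2, an ephrin receptor, at 88.2 and 69.0 FPKM. EGFR was the fifth in the control and the sixth in shETS1, and ERBB2 the eighth in each. AXL thus stood above every growth factor receptor described here, and with no error for any level it cannot be said which neighbours in the order differ. Of the 15 tested genes among the other 42, 0 were called, where 0.812% of all tested rows were. At an unadjusted p under 0.05, which 6.94% of all tested rows reached, there were 2 of the 15. These were EPHB4 (7.71 and 4.99 FPKM) and EPHA4 (1.03 and 1.62 FPKM), both named after their values were seen.

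**Figure D3:**
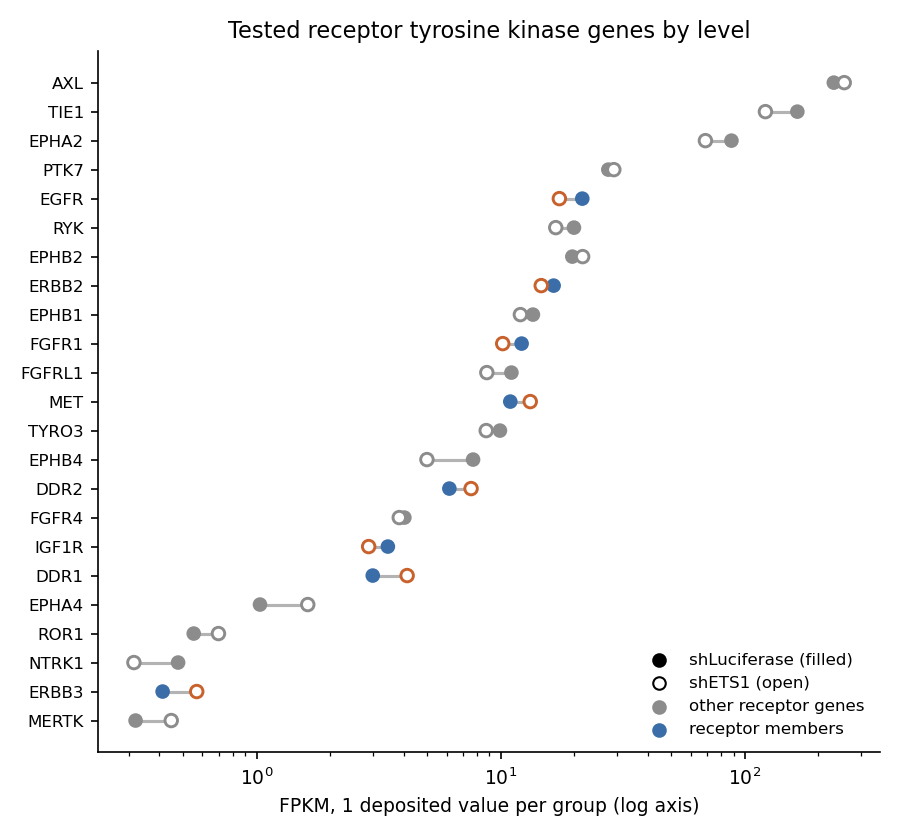
FPKM (horizontal log axis) of the 23 tested receptor tyrosine kinase genes, ordered by their control level, 1 deposited value per group. Filled points are shLuciferase and open points shETS1, in colour for the 8 tested members and grey for the others. AXL leads at 232 and 256 FPKM, and the highest member, EGFR, lies at 21.6 and 17.4 FPKM.

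The ligand genes of the ERBB receptors were expressed unevenly. HBEGF, which encodes a membrane-anchored EGFR ligand that is shed by proteases, was at 8.14 (control) and 11.0 FPKM (knockdown). TGFA was at 2.45 and 2.19 FPKM, while EGF, AREG, EREG, BTC and EPGN were untested and below 0.1 FPKM. NRG1, the neuregulin that binds ERBB3 and ERBB4, was at 7.66 and 13.8 FPKM, 1.81-fold higher in shETS1. It was not called (unadjusted p = 0.00395, q = 0.193, the authors' deposited table). NRG1 had the largest ratio of the soluble ligands tested, in cells where both of its direct receptors were low (ERBB3 at 0.412 FPKM in the control, ERBB4 lower).

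For FGFR1, several ligand genes were measurable. FGF1 stood at 8.93 and 9.96 FPKM, FGF5 at 6.88 and 9.90 FPKM and FGF2 at 2.57 and 3.94 FPKM, control first. All 5 tested genes of the list with a mean of at least 1 FPKM had a log2 ratio above 0. Their median was 0.41, beside 0.02 for all tested rows at that level. These genes were FGF1, FGF2, FGF5, FGF12 and FGFBP1, a carrier protein of FGFs. FGF12 is a largely intracellular family member, so the list is wider than the ligands of FGFR1. Of those with a mean under 1 FPKM, FGF11 (0.478 and 0.754 FPKM) and FGF18 (0.461 and 0.676 FPKM) were also higher in shETS1. FGFBP3 (0.834 and 0.793 FPKM) was lower. None of the 8 tested genes of the list was called, where 0.812% of all tested rows were. FGF2 and FGF5 were under an unadjusted p of 0.05, 2 of the 8 beside 6.94% of all tested rows. The authors' deposited table gives them q-values of 0.529 and 0.562.

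MET and IGF1R had almost no RNA of their own ligands beside them. HGF was untested at 0.0147 FPKM in the control and listed at 0 in shETS1. SPINT2, an inhibitor of the proteases that activate HGF, was at 2.61 and 3.57 FPKM (q = 0.949, the authors' deposited table), and SPINT1 and the activating protease ST14 were untested at 0.165 and 0.0866 FPKM in the control. IGF1 and IGF2 were at 0.0295 and 0.00899 FPKM in the control and also untested. The genes of the IGF binding proteins, which hold IGFs in the extracellular fluid, ranged widely, with IGFBP4 at 507 and 457 FPKM, IGFBP3 at 377 and 395 FPKM and IGFBP6 at 189.9 and 147 FPKM, but IGFBP1 at 6.82 and 7.89 FPKM, IGFBP7 at 8.26 and 8.96 FPKM and the untested IGFBP5 at 0.165 and 0.141 FPKM. None of the 7 tested IGF genes was called, where 0.812% of all tested rows were. IGFBP2 (39.8 and 27.6 FPKM) and IGF2R, a scavenger receptor for IGF2 (12.9 and 8.88 FPKM), had the largest ratios, both lower in shETS1. For them the authors' deposited table lists q = 0.591 and 0.555. Both were under an unadjusted p of 0.05, 2 of the 7 beside 6.94% of all tested rows.

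The PDGF system showed the opposite arrangement, ligand without receptor. PDGFC was at 21.5 and 28.5 FPKM, PDGFA at 13.9 and 11.7 FPKM and PDGFB at 1.49 and 1.61 FPKM, while neither receptor exceeded 0.12 FPKM. None of the 3 tested ligands was called, where 0.812% of all tested rows were.

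Among collagen genes that encode DDR ligands, 1 of 5 tested was called, where 0.812% of all tested rows were. The count rests on that 1 gene. COL1A1, the alpha-1 chain of collagen I, rose from 1.29 to 3.75 FPKM, 2.91-fold (q = 0.00964, the authors' deposited table). Its partner chain COL1A2 was untested at 0.0201 and 0.00934 FPKM. The basement membrane chains COL4A2 and COL4A1 were more abundant, at 50.01 and 47.1 FPKM and at 11.8 and 14.5 FPKM, and COL5A2 was at 3.05 and 3.17 FPKM. Of the other tested collagen genes, COL4A1 and COL5A2 had higher values in shETS1, and COL4A2 and COL4A5 (0.960 and 0.885 FPKM) lower ones. None of them was called. The values of DDR1 and DDR2 were also higher but not called, and the level of DDR1 is uncertain. A link between COL1A1 and these receptors was not tested.

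**Figure D4:**
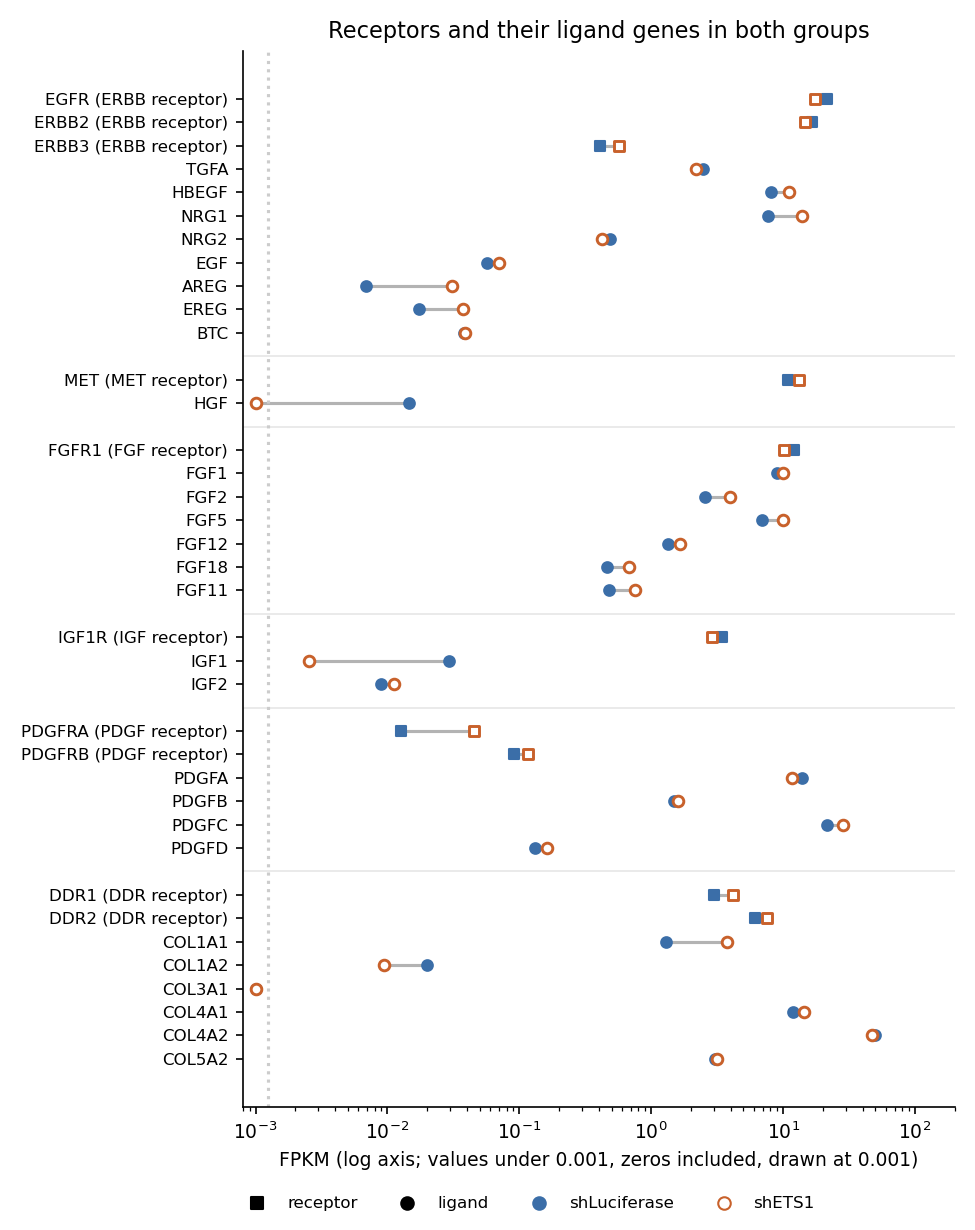
FPKM (horizontal log axis) of receptors (squares) and ligand genes (circles) of each system, in shLuciferase (filled blue) and shETS1 (open orange), 1 deposited value per group. Values under 0.001, zeros included, are drawn at 0.001. FGF11 and FGF12, drawn among the FGF ligands, are largely intracellular family members. MET and IGF1R stand far above HGF, IGF1 and IGF2, the PDGF receptors far below PDGFA and PDGFC, and COL1A1, at 1.29 and 3.75 FPKM, is the single called gene.

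Genes that present or shed ligands showed no call among 12 tested, where 0.812% of all tested rows were called. With 12 genes, that share gives few or no calls. CD44, a hyaluronan receptor that serves as a co-receptor of MET, was at 129 and 184 FPKM, CD9, a tetraspanin that associates with HB-EGF, at 112 and 82.5 FPKM and SDC1, a heparan sulfate proteoglycan, at 67.7 and 82.5 FPKM. For these genes the authors' deposited table lists q = 0.918, 0.767 and 1.00.

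Inside the cell, the adaptors and core pathways gave no call either, near the 0.812% of all tested rows that were called. The counts were 0 of 24 tested adaptor and proximal genes, 0 of 12 RAS-ERK genes and 0 of 16 PI3K-AKT genes. The median log2 ratios of those with a mean of at least 1 FPKM were -0.06, -0.08 and -0.10. Over all tested members they were -0.13, -0.09 and -0.08, the adaptor list gaining SHC3 (0.493 and 0.333 FPKM). SHC1, an adaptor that links phosphorylated receptors to GRB2, was at 47.8 and 33.4 FPKM (q = 0.590, the authors' deposited table). GRB2, which brings the RAS activator SOS to receptors, was at 45.8 and 44.0 FPKM, and the kinase gene SRC at 44.1 and 35.8 FPKM. GAB2, a docking protein downstream of GRB2, was at 5.85 and 3.66 FPKM (unadjusted p = 0.00675, q = 0.266, the authors' deposited table). Abundant genes of the RAS-ERK list were MAP2K2 (223 and 225 FPKM) and HRAS (214 and 181 FPKM). Those of the PI3K-AKT list were AKT1 (108 and 87.9 FPKM), AKT2 (38.6 and 39.4 FPKM) and TSC2 (27.7 and 26.5 FPKM). SHC1 and GAB2, 2 of the 24 adaptor and proximal genes, were under an unadjusted p of 0.05. The scaffold gene KSR1 (0.989 and 0.602 FPKM) was as well, 1 of the 12 RAS-ERK genes, beside 0 of the 16 PI3K-AKT genes. All of them were lower in shETS1, and the counts are near the 6.94% of all tested rows under that limit.

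Genes that switch receptors off or move them through the cell were also without a call, where 0.812% of all tested rows were called. The counts, 0 of 28 tested inhibitors and feedback genes, 0 of 24 endocytosis genes and 0 of 10 chaperone genes, are near that share. LRIG1, a membrane protein that promotes the degradation of ERBB receptors and MET, was at 3.81 and 7.01 FPKM, 1.84-fold higher in shETS1 (unadjusted p = 0.0414, q = 0.678, the authors' deposited table). PTPRJ, a receptor phosphatase, was at 5.90 and 9.38 FPKM (unadjusted p = 0.00885, q = 0.315, the authors' deposited table). Both were named after their values were seen, as the inhibitors under an unadjusted p of 0.05. They were 2 of 28, beside 6.94% of all tested rows. The more abundant PTPRF (53.0 and 47.7 FPKM), DUSP5 (38.2 and 33.7 FPKM) and PTPN1 (24.9 and 33.7 FPKM) had no common direction. Clathrin adaptor genes were abundant, with AP2M1 at 753 and 645 FPKM, AP2S1 at 670.0 and 561 FPKM and the clathrin light chain gene CLTA at 288 and 279 FPKM. Of the 24 endocytosis genes, 3 were under an unadjusted p of 0.05, beside 6.94% of all tested rows. VPS4B (3.95 and 6.85 FPKM), STAM2 (1.95 and 2.81 FPKM) and CLTB (324 and 229 FPKM) were these genes, with both directions present. The HSP90 genes, whose products stabilise ERBB2 among other kinases, were at 1475 and 1481 FPKM (HSP90AB1) and 1085 and 1290 FPKM (HSP90AA1), and their partner HSPA8 at 1739 and 1821 FPKM.

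Over the 14 lists around the receptors, 169 distinct genes were tested and 1 was called (COL1A1), 0.592% against the background of 0.812%. At an unadjusted p under 0.05 there were 16, 9 higher and 7 lower, which is 9.47% against 6.94% of all tested rows.

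**Figure D5:**
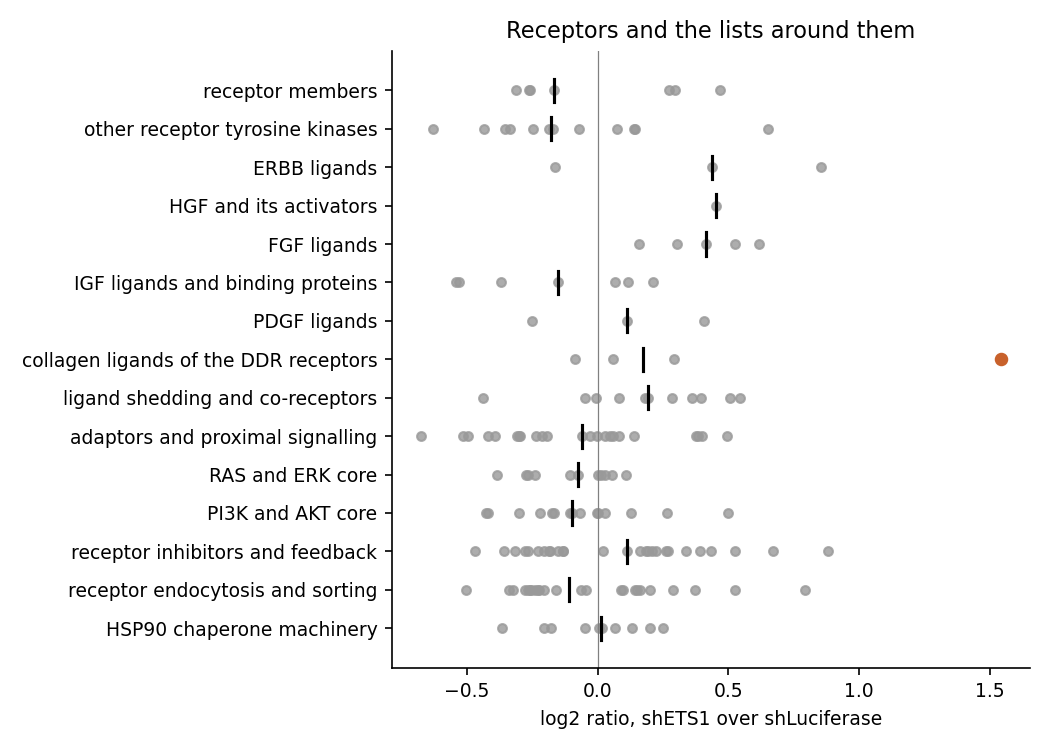
Log2 ratio of shETS1 over shLuciferase (horizontal axis) for the receptors and each list around them, 1 point per tested gene that averaged 1 FPKM or more and a black bar at the median. The receptors lie from -0.31 to 0.47, and the single orange point is the called gene COL1A1 at 1.54.

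The tested receptors differed in the base composition of their transcripts. The longest coding transcript had a GC content from 41.6% (DDR2) and 42.4% (MET) to 59.3% (ERBB2) and 61.6% (DDR1). With the trend of log2 ratios on GC content removed, DDR2 went from 0.30 to 0.15, MET from 0.27 to 0.15, FGFR1 from -0.26 to -0.17 and ERBB2 from -0.17 to -0.05, each nearer 0. DDR1 moved the other way, from 0.47 to 0.60, as did EGFR, from -0.31 to -0.34, and ERBB3, from 0.46 to 0.50, while IGF1R went from -0.26 to -0.23. None of the 8 signs changed. The part of GC content in these differences was not tested.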

How the data were processed

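RNA was measured in 6 samples, 3 with a luciferase hairpin and 3 with an ETS1 hairpin. Per the labels' protocols, DNase-treated total RNA was selected for poly(A) and copied with random hexamers, with no strand-marking step described. Per the submitters' processing notes, the tools were Cufflinks 2.1.1, SAMtools 0.1.18, TopHat2 2.0.7 and Bowtie2 2.0.6 and the build hg19, without stated roles. Per the file headers, the authors deposited 1 FPKM value per gene and group, a test statistic (a score, not used in any result), and a p-value and q-value for each row. Not given in the sources used here: the annotation and the scaling between libraries.

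Log2 ratios were computed from the deposited FPKM values with no pseudocount, in place of the planned deposited ratio, whose column holds spreadsheet error texts. Calls required a deposited q-value no larger than 0.05. The depth behind the values is unknown. Coordinates are the deposited ones, with 1 added to the start. The receptors, the lists and the tests were chosen with earlier results of these data known. Named are all receptors, ETS1 and, per list around them, called genes, the 3 most abundant genes and, for ligands, the 2 largest ratios; others were chosen after their values were seen, and 1 gene that the rule names is not reported here. GC content came from GENCODE 29 by symbol (90.6% of the 10676 expressed genes), with a cubic trend. Helper steps were tested on simulated data (Python 3.11.15, pandas 2.3.3, numpy 2.4.6). Alternatives varied thresholds, pseudocount, centring, GC correction and low-level filters.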

Additional observations from a re-analysis of the deposited data

How the results depend on the processing

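No paired analysis was possible because the table holds 1 value per gene and group, and for the same reason no replicate could be left out. The count of called receptors was 0 at q-value limits of 0.01, 0.05 and 0.10 and at an unadjusted p under 0.05. It was also 0 with p-values adjusted over rows that averaged 1 FPKM or more, and without DDR1, a setting chosen after seeing the data. The smallest unadjusted p of the 8 in the authors' deposited table was 0.0697, and adjustment does not lower a p-value. The counts at q-value limits of 0.01 and 0.05, after the new adjustment and without DDR1 therefore could not differ from 0. The signs of all 8 tested receptors held in the 40 values from 5 rescalings. These were pseudocounts of 0.1 and 1 FPKM, median centring, upper-quartile scaling and removal of the GC trend. A pseudocount added to both values cannot reverse a sign. The log2 shifts of centring (0.0151) and scaling (-0.0355) were smaller than every tested ratio by absolute size. Only removal of the GC trend could therefore have changed a sign. The receptors' median log2 ratio was 0.05. It was -0.17 for members that averaged 1 FPKM or more, -0.17 for those that averaged 5 FPKM or more and -0.17 without DDR1, with ERBB2 as the middle value each time. In the rescalings it lay from -0.003 to 0.09. The count of 1 called gene around the receptors was also 1 at a q-value of 0.10 and among genes that averaged 1 FPKM or more, and 16 at an unadjusted p under 0.05.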

Other observations

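The unadjusted p of EGFR in the authors' deposited table was larger than that of every other row of similar level and fold. There were 87 other tested rows with a mean within 1.2-fold of that of EGFR and an absolute log2 ratio within 0.03 of its own, a comparison chosen after seeing the data. Their median unadjusted p in the authors' deposited table was 0.209, with 0.167 to 0.374 between the 5th and 95th percentiles, whereas EGFR stood at 0.541. Of the 87 rows, 0 had a larger p. The other tested receptors lay between the same percentiles of their own such rows. IGF1R had 15 of 79 rows with a larger p, FGFR1 42 of 96, MET 61 of 109, ERBB2 103 of 165, DDR2 69 of 92, DDR1 43 of 48 and ERBB3 4 of 21. The values per sample that would show how EGFR varied were not analysed here, and the cause was not tested.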
